A study of Homo sapiens with 8 samples.

Results

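The proteasome of HT29 cells, an established human colorectal adenocarcinoma line, was followed at the mRNA level through the 48 genes that encode its subunits, activators, inhibitor and assembly factors. Genes were taken by symbol from the authors' deposited tables of 18937 genes: the PSMA, PSMB, PSMC and PSMD families, PSME1 to PSME4, PSMG1 to PSMG4, PSMF1, POMP and ADRM1. All 48 passed the filter on low counts and were tested among 16449 genes. Cells received ICG-001 at 10 µM, CWP232228 at 1.5 µM or YB-0158 at 0.3 µM, and control cells received the DMSO vehicle at 0.1%. Each group had 2 RNA-seq libraries, taken at 48 h, or at 49 h in the case of replicate 2 with ICG-001 and replicate 2 with CWP232228. The labels name no genetic change in any group and do not say how the replicates were grown; the p-values below reflect only how far these libraries lay apart. ICG-001 binds the coactivator CREBBP. The doses differ between the compounds, and the 3 comparisons share the same DMSO libraries.

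The proteasome degrades proteins tagged with ubiquitin. Its barrel-shaped core is made of outer alpha rings and inner beta rings, and 3 of the beta subunits cut peptide bonds. A regulatory cap recognises ubiquitin, unfolds the substrate with a ring of ATPases and removes the ubiquitin with a lid-borne enzyme. In immune cells, or under interferon, the immunoproteasome subunits replace the cutting subunits. The transcription factor NFE2L1 is known to raise most proteasome genes together when proteasome activity is short.

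The promoters of 5 members are shown. In the fit to counts PSME1 and PSMC3 had the largest falls with ICG-001 and YB-0158, and PSME3 was higher with each compound. In the authors' deposited tables PSMG4 fell further than PSMC3 with ICG-001 (-0.93 against -0.80) and YB-0158 (-0.86 against -0.79). PSME2, not called with any compound, encodes the partner of PSME1. PSMB10 is an immunoproteasome gene shown for its interferon-type motif. These 2 genes were not picked for the size of their change. Sequences are those of RefSeq on GRCh38.p14, 250 bases before to 50 bases after the annotated start, 5′ to 3′ on the gene's strand. Capitals mark matches, on either strand, to 3 motifs: TGAnnnnGC, the core of the antioxidant response element bound by NFE2L1 and NFE2L2; GAAA followed by any 2 bases and GAAA, the core of the interferon-stimulated response element; and CCAAT, the CCAAT box. The PSME1 window is chr14:24135944-24136243 (plus strand), that of PSME2 chr14:24146561-24146860 (minus), that of PSMC3 chr11:47426390-47426689 (minus), that of PSMB10 chr16:67936801-67937100 (minus) and that of PSME3 chr17:42833147-42833446 (plus).
PSME1: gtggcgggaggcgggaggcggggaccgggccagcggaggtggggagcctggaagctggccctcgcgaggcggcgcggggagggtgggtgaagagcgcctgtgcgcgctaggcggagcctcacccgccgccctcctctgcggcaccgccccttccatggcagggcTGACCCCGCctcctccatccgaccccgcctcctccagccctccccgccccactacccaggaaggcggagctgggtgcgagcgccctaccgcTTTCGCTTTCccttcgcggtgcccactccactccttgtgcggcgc
PSME2: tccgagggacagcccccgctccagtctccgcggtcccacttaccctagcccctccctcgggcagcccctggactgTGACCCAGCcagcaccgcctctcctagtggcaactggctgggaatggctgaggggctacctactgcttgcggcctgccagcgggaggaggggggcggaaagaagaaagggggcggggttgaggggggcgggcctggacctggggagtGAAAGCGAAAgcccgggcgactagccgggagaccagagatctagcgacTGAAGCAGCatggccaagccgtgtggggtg
PSMC3: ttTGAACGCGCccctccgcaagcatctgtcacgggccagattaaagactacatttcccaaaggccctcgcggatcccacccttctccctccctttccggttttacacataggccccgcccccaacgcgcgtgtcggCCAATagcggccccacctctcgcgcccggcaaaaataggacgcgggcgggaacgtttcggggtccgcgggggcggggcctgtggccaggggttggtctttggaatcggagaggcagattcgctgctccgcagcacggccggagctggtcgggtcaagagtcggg
PSMB10: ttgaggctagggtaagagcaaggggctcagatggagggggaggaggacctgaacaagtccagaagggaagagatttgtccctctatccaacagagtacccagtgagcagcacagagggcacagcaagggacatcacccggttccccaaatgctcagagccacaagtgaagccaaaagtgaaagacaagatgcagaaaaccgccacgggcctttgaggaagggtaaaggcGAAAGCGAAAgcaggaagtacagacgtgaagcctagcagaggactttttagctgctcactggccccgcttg
PSME3: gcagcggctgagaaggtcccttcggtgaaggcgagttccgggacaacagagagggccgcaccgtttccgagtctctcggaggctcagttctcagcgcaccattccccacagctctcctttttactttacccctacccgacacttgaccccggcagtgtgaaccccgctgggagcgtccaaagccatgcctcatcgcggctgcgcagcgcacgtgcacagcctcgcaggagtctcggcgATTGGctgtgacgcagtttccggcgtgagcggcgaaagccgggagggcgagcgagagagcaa
PSME1 and PSME2 each held 1 interferon-type match, starting at position 5 in PSME1 and at position -28 in PSME2, counted from 0 at the annotated start. PSMB10 held 1 at position -21. PSMC3 and PSME3 held none and had 1 CCAAT box each, at positions -114 and -12. Antioxidant-type matches numbered 1 in PSME1, 2 in PSME2, 1 in PSMC3 and 0 in PSMB10 and PSME3. Over all members with a sequence (42 of 48, in 52 windows, since some genes have several starts), 7 windows (13.5%) held the interferon-type motif, against 3.57% of 35116 promoter windows. These were in PSMA4, PSMB4, PSMB8, PSMB10, PSME1, PSME2 and PSMG4. The antioxidant-type motif was in 61.5% of member windows against 41.8% of all, and the CCAAT box in 40.4% against 34.6%. A match is a description of the letters in the window and not a mapped binding site.

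Estimated reads came to between 29071547 and 58489118 per library. Epithelial markers summed to 11400 to 11800 CPM (reads scaled to the normalised library total) with ICG-001, 11000 to 11600 with CWP232228, 13000 to 13200 with YB-0158 and 14800 to 17100 in DMSO. All 8 of them were detected, and most of each sum was KRT8 and KRT18. KRT8, KRT18, KRT19, CDX2 and VIL1 were lower in every treated library than in both DMSO libraries, while EPCAM and CDH1 were higher. EPCAM was at 581 to 686 CPM in treated libraries, against 470 and 490 CPM in DMSO. KRT20 was higher with ICG-001 and YB-0158 and overlapped DMSO with CWP232228. Of 6 leukocyte markers, listed because leukocytes are rich in immunoproteasome, CD3E was at 0 counts in every library. PTPRC had 1 count in CWP232228 replicate 1 and 0 in every other library. CD14 reached at most 4.24 CPM and CD68 at most 9.16 CPM. The sum of the 6 markers, 2490 to 2710, 2490 to 2650 and 2570 to 2620 CPM with the compounds in the same order and 2780 to 2880 CPM in DMSO, was nearly all LYZ. Markers of fibroblasts (5 genes) summed to at most 4.53 CPM and those of endothelium (4 genes) to at most 1.74 CPM. The DMSO libraries lay furthest apart, and 39 of the 48 members were higher in DMSO replicate 2 than in replicate 1, with a median log2 difference of 0.18. Replicate 2 minus replicate 1 on the log2 scale had an SD across 8568 genes of 0.121 with ICG-001, 0.128 with CWP232228 and 0.112 with YB-0158, against 0.298 in DMSO. The test uses 1 spread for all groups, so p-values against DMSO may be too small. The label of 49 h and the replicate number cannot be told apart. In bulk RNA, fewer cells of a kind and less mRNA per cell cannot be told apart.

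More proteasome genes fell than rose with each compound, most of them by a modest amount. Of the 48 members, 24 fell and 6 rose with ICG-001, 21 fell and 6 rose with CWP232228, and 23 fell and 3 rose with YB-0158 (edgeR's quasi-likelihood test, Benjamini-Hochberg adjusted p under 0.05 over all genes). The members that fell thus made up 50%, 43.8% and 47.9%, where 24%, 21.2% and 22.1% of all tested genes fell, and those that rose 12.5%, 12.5% and 6.25%, where 24.8%, 21.6% and 21.7% of all genes rose. The median log2 fold change of the members was -0.24 with ICG-001, -0.23 with CWP232228 and -0.21 with YB-0158, against 0.03, 0.04 and 0.02 over all genes. Summed over the members, proteasome mRNA took 0.623% and 0.61% of all transcripts (TPM, a level per length) with ICG-001, 0.631% and 0.629% with CWP232228 and 0.615% and 0.62% with YB-0158, against 0.685% and 0.691% in DMSO. All treated libraries lay below both DMSO libraries. Both libraries of the compound were below both of DMSO in 28, 29 and 28 members with ICG-001, CWP232228 and YB-0158 (35.9%, 34.7% and 35.9% of all genes), and above both in 12, 12 and 9 members (38.8%, 38.1% and 37.3% of all genes). In the authors' deposited tables, 20 members were lower and 4 higher with ICG-001, 20 and 0 with CWP232228, and 20 and 2 with YB-0158.

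**Figure D1:**
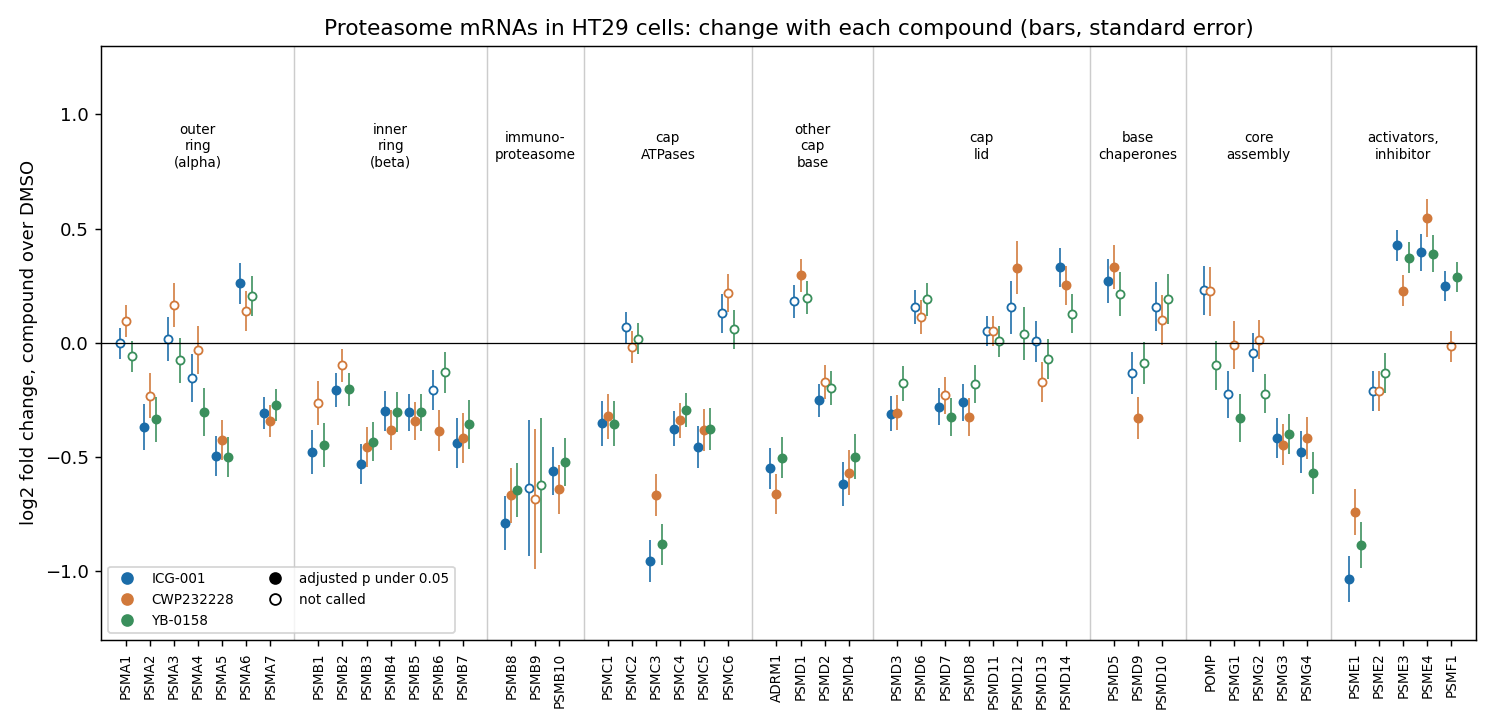
Log2 fold change of each of the 48 genes (x axis, grouped by role) with ICG-001, CWP232228 and YB-0158 over DMSO (y axis); bars are standard errors, filled points have an adjusted p under 0.05. PSME1 and PSMC3 lie lowest with ICG-001, at -1.03 and -0.95, while PSME3 and PSME4 lie above 0 with all 3 compounds.

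These counts depended on single libraries and on a correction for base composition. Without replicate 1 or 2 of ICG-001, 15 members fell in either case, and 3 or 2 rose. Without replicate 2 of CWP232228, 9 fell, and without its replicates 1 and 2 in turn, 1 and 2 rose. Leaving out replicate 1 or 2 of YB-0158 left 10 or 12 falls, and 1 rise without replicate 2 and 2 without replicate 1. Leaving out DMSO replicate 1 gave 30 falls and 5 rises with YB-0158, and leaving out DMSO replicate 2 gave 3 rises and a median of -0.13 with CWP232228. Log2 fold changes of members followed the GC content of their transcripts, with a Spearman rho across the 48 genes of -0.57 with ICG-001, -0.72 with CWP232228 and -0.45 with YB-0158 (-0.42, -0.57 and -0.38 across all genes; genes are not independent replicates). Differences between replicates of the same group also followed GC content across the members. For replicate 2 minus replicate 1, rho was -0.86 with ICG-001, -0.46 with CWP232228, -0.74 with YB-0158 and 0.38 in DMSO. With a correction for GC content and length, 12 members fell and 8 rose with ICG-001 (all genes, 21.1% and 25.4%), 10 and 2 with CWP232228 (10.9% and 15.4%), and 15 and 7 with YB-0158 (20.4% and 23.3%). The corrected medians were -0.06, -0.05 and -0.09. The correction was fitted across genes in each library, so it can also remove a true difference that follows GC content or length. Of the 17 members that fell with all 3 compounds as counted, 6 did so under the correction too: PSME1, PSMC1, PSMC3, PSMD4, PSMA5 and PSMB8.

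**Figure D2:**
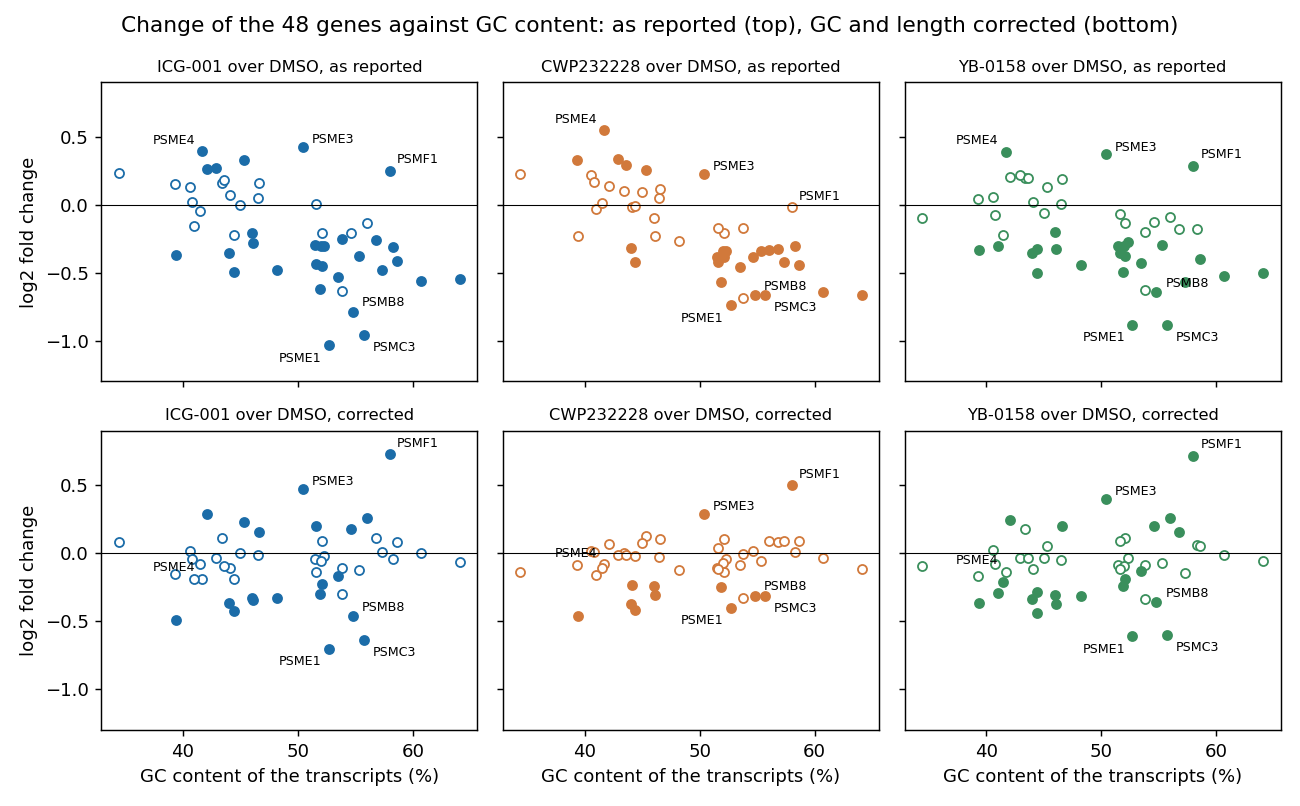
Log2 fold change over DMSO (y axis) against the GC content of the transcripts in percent (x axis) for the 48 genes; the top row is as reported and the bottom row after the correction for GC content and length, with called genes filled. The top row slopes down (rho -0.57, -0.72 and -0.45), and in the bottom row PSME1, PSMC3 and PSMB8 remain low and PSME3 and PSMF1 high.

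Levels per length ranged widely among the members. In DMSO, PSMB3, a beta subunit, was at 413 and 434 TPM, PSMA7, an alpha subunit, at 425 and 421 TPM, and PSMA5 at 391 and 427 TPM. These 3 highest levels overlapped between libraries. The lowest by their means were PSMB9 at 2.02 and 2.23 TPM, PSMB8 at 18.9 and 20.9 TPM and PSME4 at 21.1 TPM in both libraries. PSMD5, at 29.6 and 20.7 TPM, was below PSMB8 and PSME4 in DMSO replicate 2. By role, the alpha ring summed to 1663 and 1662 TPM with ICG-001, 1748 and 1748 with CWP232228 and 1607 and 1661 with YB-0158, against 1781 and 1833 in DMSO. The beta ring summed to 1234 and 1199 TPM with ICG-001, 1269 and 1262 with CWP232228 and 1251 in both libraries with YB-0158, against 1473 and 1543 in DMSO. For the cap lid the sums overlapped: 866 and 847, 853 and 848, and 833 and 844 TPM with the compounds in the same order, against 853 and 810 TPM in DMSO.

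**Figure D3:**
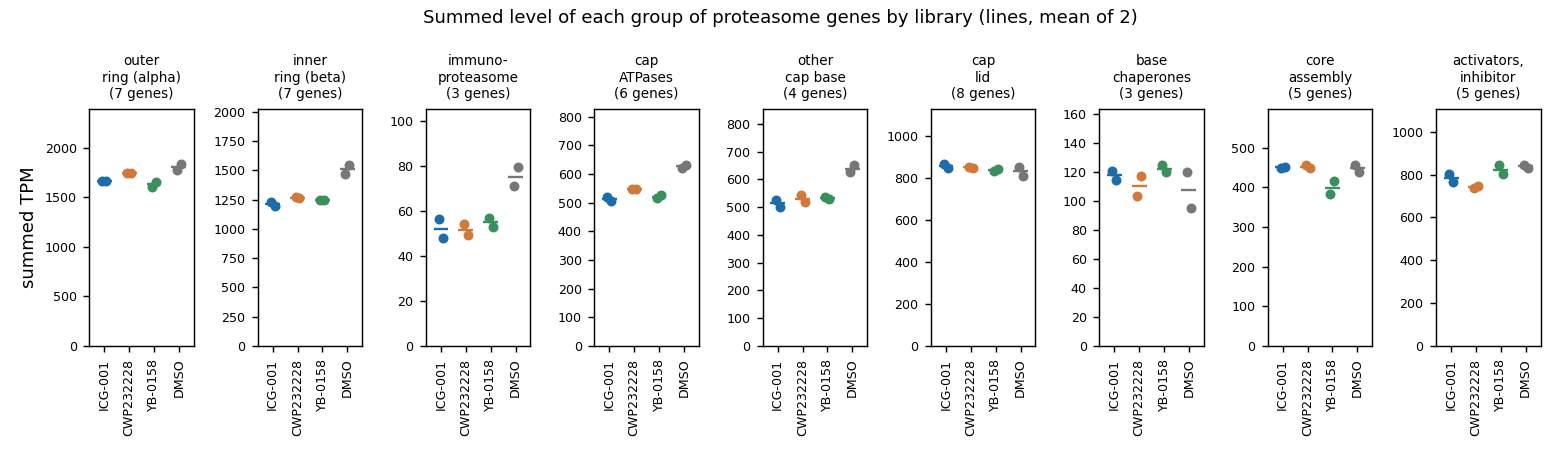
Summed TPM (y axes, from 0) of the genes of each role in every library (points) with the mean of 2 libraries (lines), for ICG-001, CWP232228, YB-0158 and DMSO. All 6 treated libraries lie below both DMSO libraries for the alpha ring, the beta ring, the immunoproteasome, the cap ATPases and the other cap base genes, and not for the cap lid.

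Of the 7 alpha subunits, which form the gated outer rings, 3 fell and 1 rose with ICG-001, 2 fell with CWP232228 and 4 fell with YB-0158. PSMA5 had 112 and 114 CPM with ICG-001, 117 and 120 CPM with CWP232228 and 114 and 110 CPM with YB-0158, against 145 and 172 CPM in DMSO. The treated libraries were all below both DMSO libraries. On the log2 scale this gave -0.50 (SE 0.09, adjusted p = 0.0021), -0.42 (SE 0.09, adjusted p = 0.0066) and -0.50 (SE 0.09, adjusted p = 0.0024), and all 3 were called under the GC and length correction too (-0.42, -0.41 and -0.44). When only protein-coding transcripts were summed, the change with YB-0158 was -0.28 and no longer called. PSMA7 fell by 0.31, 0.34 and 0.27 on the log2 scale, and none of these calls held after the correction. PSMA2, which overlaps MRPL32 on the other strand, fell by 0.37 with ICG-001 and by 0.33 with YB-0158, and with the correction it was called lower with all 3 compounds. PSMA6 was the alpha gene that rose, by 0.26 with ICG-001 (SE 0.09, adjusted p = 0.037), and with the correction with YB-0158 too (0.24).

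Of the 7 genes of the beta ring, which holds the cutting sites, 6 fell with ICG-001, 5 with CWP232228 and 6 with YB-0158, and none rose. With the GC and length correction 3 fell and 1 rose with ICG-001, 1 fell with CWP232228, and 3 fell and 1 rose with YB-0158. PSMB1 and PSMB2 fell with ICG-001 and YB-0158 as counted. Under the correction PSMB2 was called lower with all 3 compounds (-0.33, -0.24 and -0.31). PSMB1 was then called lower with ICG-001 (-0.33) and YB-0158 (-0.31). PSMB3, a structural subunit, had 185 and 182 CPM with ICG-001, 198 and 188 CPM with CWP232228 and 198 and 195 CPM with YB-0158, against 242 and 287 CPM in DMSO. This came to log2 fold changes of -0.53, -0.45 and -0.43 (SE 0.09 each, adjusted p = 0.0015, 0.0049 and 0.0046), and with the GC and length correction -0.17, -0.08 and -0.13, not called with CWP232228. Without replicate 2 of CWP232228 the change with that compound was -0.41 (adjusted p = 0.051). PSMB5 encodes the chymotrypsin-like site, the main target of proteasome inhibitor drugs. It had 94.5 and 92.6 CPM with ICG-001, 92.8 and 89.5 CPM with CWP232228 and 92.8 and 94.3 CPM with YB-0158, against 107 and 124 CPM in DMSO. Its log2 fold changes were -0.30, -0.34 and -0.30 (adjusted p = 0.015, 0.012 and 0.017). PSMB7 encodes the trypsin-like site and had 113 CPM in both ICG-001 libraries, 114 and 116 CPM with CWP232228 and 122 and 117 CPM with YB-0158, against 134 and 173 CPM in DMSO. Log2 fold changes were -0.44, -0.42 and -0.36 (SE 0.11 each, adjusted p = 0.01, 0.016 and 0.027). For both genes the treated libraries lay below both DMSO libraries.

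Without 1 library of the compound compared, PSMB5 was not called with any compound: it was -0.31 and -0.29 without ICG-001 replicates 1 and 2, -0.36 and -0.31 without those of CWP232228 and -0.30 and -0.31 without those of YB-0158. PSMB7 lost its call in the same settings, at -0.44 and -0.43, -0.40 and -0.42, and -0.39 and -0.33. With YB-0158 it also did so without DMSO replicate 2 (-0.17), without ICG-001 replicate 1 (-0.35) and without either CWP232228 replicate (-0.35 each). PSMB6 encodes the caspase-like site and had 78.7 and 79.5 CPM with ICG-001, 71.9 and 67.9 CPM with CWP232228 and 84.4 and 82.5 CPM with YB-0158, against 83.7 and 98.7 CPM in DMSO. It fell with CWP232228 (-0.38, SE 0.09, adjusted p = 0.011; -0.34 and adjusted p = 0.087 without its replicate 2). With ICG-001 it was at -0.21 and with YB-0158 at -0.13, neither called, though without DMSO replicate 1 these were -0.31 and -0.23 and both called. After the GC and length correction PSMB6 was higher with ICG-001 (0.18) and YB-0158 (0.20), and no call of PSMB5 or PSMB7 held.

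Of the 3 immunoproteasome genes, PSMB8 and PSMB10 fell with each compound and PSMB9 was not called. PSMB8, which takes the place of PSMB5, had 13.6 and 12.8 CPM with ICG-001, 14.4 and 14.3 CPM with CWP232228 and 15.3 and 13.9 CPM with YB-0158, against 20.4 and 25.1 CPM in DMSO. The log2 fold changes were -0.79 (SE 0.12, adjusted p = 0.0010), -0.67 (SE 0.12, adjusted p = 0.0038) and -0.65 (SE 0.12, adjusted p = 0.0030), and the calls held in every alternative setting tried, at -0.46, -0.31 and -0.36 with the GC and length correction. PSMB10, which takes the place of PSMB7, had 31.6 and 28.4 CPM with ICG-001, 29.1 and 27.6 CPM with CWP232228 and 30.9 and 30.7 CPM with YB-0158, against 40.3 and 48.2 CPM in DMSO. It fell by 0.56, 0.64 and 0.52 on the log2 scale (adjusted p = 0.0029, 0.0030 and 0.0046), but with the correction it stood at 0.00, -0.04 and -0.01 and no call held. PSMB9, which takes the place of PSMB6, had 1.21 and 1.11 CPM with ICG-001, 1.40 and 0.848 CPM with CWP232228 and 1.38 and 0.947 CPM with YB-0158, against 1.63 and 1.98 CPM in DMSO. Its log2 fold changes of -0.63, -0.68 and -0.62 (SE 0.30, 0.31 and 0.30) were not called. PSMB8 and PSMB9 overlap each other on opposite strands, and the kit does not mark strand, so their reads are in part uncertain.

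Against their constitutive counterparts, PSMB8 made up 11.0% and 10.8% of the TPM of PSMB8 plus PSMB5 with ICG-001, 12.2% and 12.1% with CWP232228 and 12.4% and 11.0% with YB-0158, against 13.8% and 14.7% in DMSO. PSMB10 made up 16.6% and 14.7% of PSMB10 plus PSMB7 with ICG-001, 15.2% and 13.8% with CWP232228 and 15.5% and 15.4% with YB-0158, against 17.1% and 17.3% in DMSO. Both shares were below the DMSO libraries in all 6 treated libraries. The shares were taken without the GC and length correction. With it PSMB10 was at 0.00, -0.04 and -0.01 and PSMB7 at -0.14, -0.11 and -0.11, none called, so a lower PSMB10 share was not seen there. PSMB8 stayed lower (-0.46, -0.31 and -0.36), while PSMB5 was at -0.05, -0.07 and -0.09, not called. PSMB9 made up between 1.07% and 1.75% of PSMB9 plus PSMB6 in the treated libraries and 1.66% and 1.75% in DMSO, and these overlapped.

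**Figure D4:**
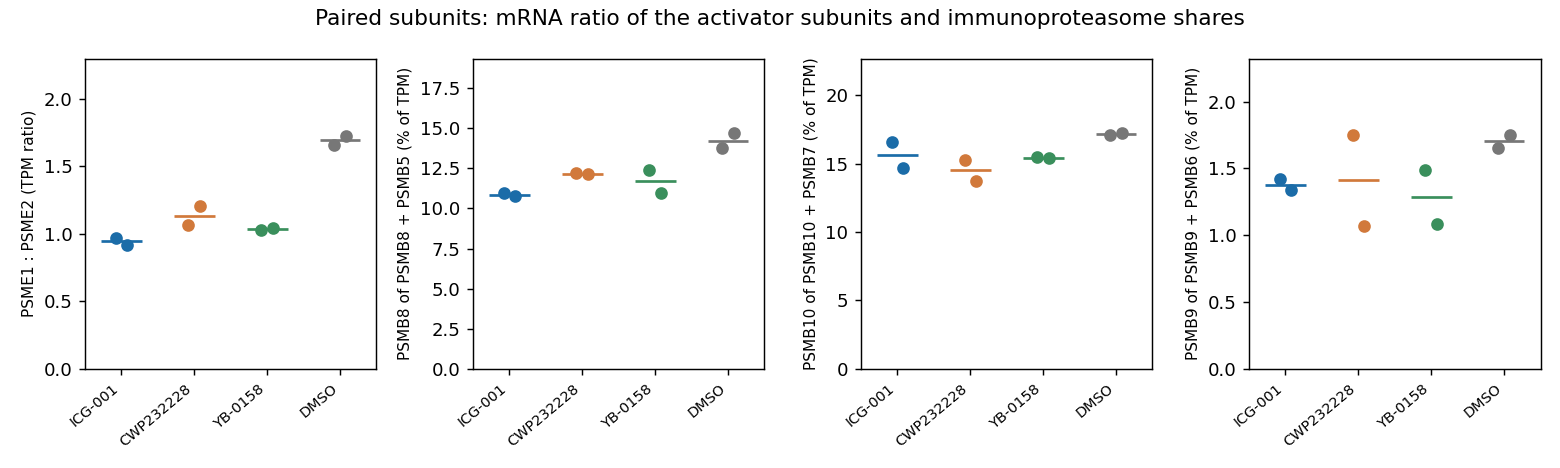
TPM ratio of PSME1 to PSME2 and the immunoproteasome subunits as percent of the TPM of each with its constitutive counterpart (y axes, from 0) in every library (points) with the mean of 2 (lines). The PSME1 to PSME2 ratio is between 0.921 and 1.20 in treated libraries and 1.66 and 1.73 in DMSO, while the PSMB9 shares of treated and DMSO libraries overlap.

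Of the 6 ATPases of the cap, the motor that unfolds substrates, 4 fell with each compound and none rose. PSMC3 had 102 and 98.2 CPM with ICG-001, 126 and 119 CPM with CWP232228 and 104 and 107 CPM with YB-0158, against 177 and 211 CPM in DMSO. Its log2 fold changes were -0.95 (SE 0.09, adjusted p = 0.00012), -0.67 (SE 0.09, adjusted p = 0.0016) and -0.88 (SE 0.09, adjusted p = 0.00021). All calls held in every alternative setting tried, at -0.63, -0.31 and -0.60 with the GC and length correction. PSMC5 fell by 0.45, 0.38 and 0.38 and PSMC4 by 0.38, 0.34 and 0.29 on the log2 scale. With the correction no call of PSMC4 held, and that of PSMC5 with CWP232228 did not (-0.14). PSMC1 fell by 0.35, 0.32 and 0.35, with 23.4% of the reads of its gene family assigned to pseudogenes. PSMC2 and PSMC6, which sit in the same ring, were not called with any compound as counted. PSMC2 was at 0.07, -0.02 and 0.02 and PSMC6 at 0.13, 0.22 and 0.06. With the correction PSMC2 was called lower with CWP232228 (-0.23), and PSMC6 was at 0.02, 0.02 and 0.03, not called. Thus the 6 genes of 1 ring ranged from -0.95 to 0.13 with ICG-001, and from -0.63 to 0.02 with the correction.

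**Figure D5:**
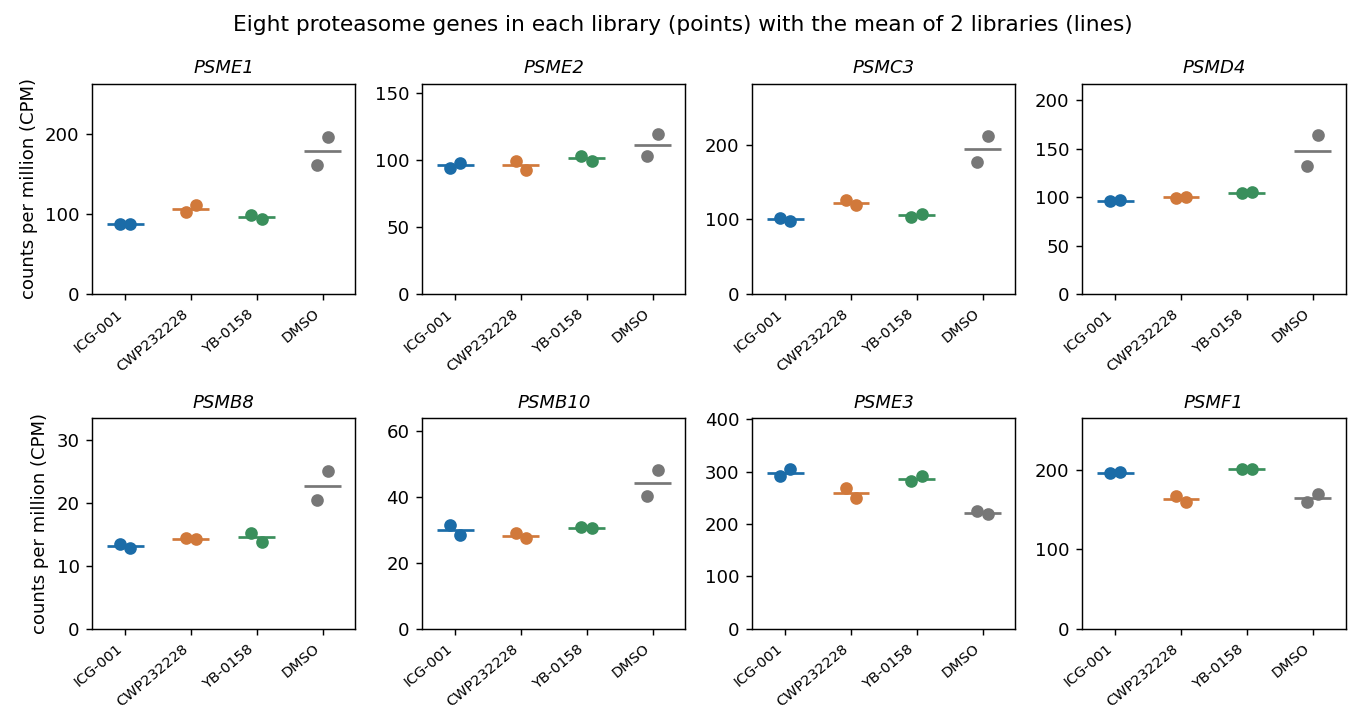
CPM (y axes, from 0) of 8 genes in every library (points), with the mean of 2 libraries (lines), for ICG-001, CWP232228, YB-0158 and DMSO. Both DMSO libraries lie above all treated libraries for PSME1, PSMC3, PSMD4, PSMB8 and PSMB10, and below them for PSME3; PSME2 overlaps with YB-0158 and PSMF1 with CWP232228.

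Among the other base genes of the cap, the ubiquitin receptors PSMD4 and ADRM1 fell and the scaffold subunits PSMD1 and PSMD2 moved little. PSMD4 had 95.8 and 97.1 CPM with ICG-001, 99.3 and 100 CPM with CWP232228 and 104 and 106 CPM with YB-0158, against 132 and 164 CPM in DMSO. This came to log2 fold changes of -0.62 (SE 0.10, adjusted p = 0.0013), -0.57 (SE 0.10, adjusted p = 0.0033) and -0.50 (SE 0.10, adjusted p = 0.0040), and -0.30, -0.25 and -0.24, all called, with the correction. ADRM1 had 165 and 153 CPM with ICG-001, 155 and 139 CPM with CWP232228 and 165 and 163 CPM with YB-0158, against 217 and 248 CPM in DMSO. It fell by 0.55, 0.66 and 0.50 on the log2 scale (adjusted p = 0.0014, 0.0015 and 0.0025). With the correction ADRM1 was at -0.06, -0.11 and -0.06 and not called, and it overlaps LAMA5 on the other strand. PSMD2 fell with ICG-001 (-0.25, adjusted p = 0.021), while PSMD1 rose with CWP232228 (0.29, adjusted p = 0.012). With the correction these were -0.11 and -0.01 and not called.

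In the lid, which sits beside the base and clears ubiquitin from substrates, both directions occurred. Of 8 genes, 3 fell and 1 rose with ICG-001, 2 fell and 2 rose with CWP232228, and 1 fell with YB-0158, with medians of 0.03, -0.06 and -0.03. PSMD14, the enzyme that removes ubiquitin from substrates, had 93.5 and 101 CPM with ICG-001, 94.2 and 89.7 CPM with CWP232228 and 78.8 and 90.0 CPM with YB-0158, against 76.1 and 78.3 CPM in DMSO. It rose with ICG-001 (0.33, SE 0.09, adjusted p = 0.013) and with CWP232228 (0.25, SE 0.09, adjusted p = 0.043), and was at 0.13 with YB-0158 (adjusted p = 0.25). The rise with CWP232228 was not called when any single library of the 8 was left out, in which it ranged from 0.22 to 0.29, and that with ICG-001 was not called without ICG-001 replicate 2 (0.28). With the GC and length correction PSMD14 was at 0.23, called, with ICG-001 and at 0.13, not called, with CWP232228. PSMD7, a scaffold partner of PSMD14, fell by 0.28 with ICG-001 and by 0.33 with YB-0158, and with the correction it was called lower with all 3 compounds. PSMD3 and PSMD8 fell with ICG-001 and CWP232228, by 0.31 and 0.26 with the first and by 0.31 and 0.32 with the second. With the correction neither call held: PSMD3 was at -0.04 and 0.01, PSMD8 turned to 0.11 and 0.09, and PSMD8 was called higher with YB-0158 (0.16). PSMD6 was then called higher with ICG-001 (0.155) and YB-0158 (0.20), and PSMD13 with ICG-001 (0.20). In the corrected lid 1 gene fell and 3 rose with ICG-001, 1 fell with CWP232228, and 1 fell and 2 rose with YB-0158.

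Factors that build the proteasome did not move as 1 group. The 3 chaperones of the cap base were mostly not called: PSMD5 rose with ICG-001 (0.27, adjusted p = 0.046) and CWP232228 (0.33, adjusted p = 0.025), PSMD9 fell with CWP232228 (-0.33, adjusted p = 0.021), and PSMD10 was not called with any compound. With the correction PSMD5 was at -0.03 and -0.01 and not called, while PSMD9 was at 0.09, not called, with CWP232228 and was called higher with ICG-001 (0.26) and YB-0158 (0.26). Of the 5 core assembly factors, 2 fell with ICG-001, 2 with CWP232228 and 3 with YB-0158. PSMG4, a small chaperone of alpha ring assembly, had 20.5 and 19.5 CPM with ICG-001, 21.2 and 20.4 CPM with CWP232228 and 19.6 and 17.9 CPM with YB-0158, against 27.1 and 28.6 CPM in DMSO. Per length the PSMG4 means were 27.4, 32.7 and 28.8 TPM with the compounds in the same order, against 50.4 TPM in DMSO. The authors' deposited tables gave -0.93, -0.69 and -0.86, all called and larger than in the fit to counts. The log2 fold changes fitted to counts were -0.48 (adjusted p = 0.0030), -0.42 (adjusted p = 0.0083) and -0.57 (adjusted p = 0.0015). They were 0.01, 0.09 and -0.14 and not called with the correction, and -0.39 (adjusted p = 0.07) without replicate 2 of CWP232228. PSMG4 overlaps SLC22A23 and TUBB2B on the other strand. Its partner PSMG3 fell by 0.42, 0.45 and 0.40 on the log2 scale, and PSMG1 fell with YB-0158 (-0.33, adjusted p = 0.033). With the correction PSMG3 turned to 0.08, 0.09 and 0.05, not called, and PSMG1 stayed called (-0.28). POMP, which closes the assembly of the beta ring, had 163 and 185 CPM with ICG-001, 166 and 180 CPM with CWP232228 and 125 and 152 CPM with YB-0158, against 145 and 152 CPM in DMSO. Its log2 fold changes of 0.23, 0.23 and -0.10 were not called, and without YB-0158 replicate 1 the last was 0.03. Without the low-count filter POMP was called higher with ICG-001 (0.27) and CWP232228 (0.24).

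The activators, which open the core in place of the cap, held the largest fall among the members. As counted here, they also held the only members, PSME3 and PSME4, that rose with all 3 compounds, which the authors' deposited tables did not show. PSME1, on chromosome 14 (24136158 to 24138967, plus strand, GRCh38), encodes the alpha subunit of the activator that interferon gamma induces. It had 87.1 and 86.9 CPM with ICG-001, 103 and 111 CPM with CWP232228 and 99.1 and 94.0 CPM with YB-0158, against 160 and 196 CPM in DMSO. Its log2 fold changes were -1.03 (SE 0.10, adjusted p = 0.00013), -0.74 (SE 0.10, adjusted p = 0.0015) and -0.88 (SE 0.10, adjusted p = 0.00030). The calls held in every alternative setting tried, at -0.70, -0.40 and -0.61 with the correction. PSME1 overlaps EMC9 on the other strand.

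PSME2, which lies nearby (24143362 to 24147570, minus strand) and encodes the beta subunit of the same ring, had 94.4 and 97.9 CPM with ICG-001, 99.6 and 92.9 CPM with CWP232228 and 103 and 99.6 CPM with YB-0158, against 103 and 120 CPM in DMSO. The libraries of YB-0158 and DMSO overlapped. Its log2 fold changes of -0.21, -0.21 and -0.13 were not called (adjusted p = 0.073, 0.082 and 0.24). Without DMSO replicate 1 they were -0.31, -0.31 and -0.23 and called, and with the GC and length correction they were 0.10, 0.10 and 0.12 and not called. The TPM ratio of PSME1 to PSME2 was 0.967 and 0.921 with ICG-001, 1.07 and 1.20 with CWP232228 and 1.03 and 1.05 with YB-0158, against 1.66 and 1.73 in DMSO. The treated ratios lay below both DMSO ratios, while the difference between the changes of the 2 genes was not tested. Both promoters shown above hold the interferon-type motif, PSME1 just after its start and PSME2 just before it.

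PSME3, which encodes a related activator of the nucleus, had 291 and 305 CPM with ICG-001, 269 and 251 CPM with CWP232228 and 282 and 291 CPM with YB-0158, against 224 and 219 CPM in DMSO. It rose by 0.43 (SE 0.07, adjusted p = 0.0014), 0.23 (SE 0.07, adjusted p = 0.027) and 0.37 (SE 0.07, adjusted p = 0.0030) on the log2 scale, and by 0.48, 0.29 and 0.40 with the correction. In the authors' deposited tables PSME3 was at 0.33, 0.05 and 0.33, and the value with CWP232228 was not called. The rise with CWP232228 was not called without either of its own replicates (0.18 and 0.28), DMSO replicate 2 (0.19) or either YB-0158 replicate (0.22 and 0.23). PSME3 overlaps BECN1 on the other strand. PSME4, a large single-chain activator, had 113 and 121 CPM with ICG-001, 131 and 128 CPM with CWP232228 and 113 and 121 CPM with YB-0158, against 93.5 and 84.1 CPM in DMSO. Per length its means were 21.6, 24.35 and 20.8 TPM with the compounds in the same order, against 21.1 TPM in DMSO. In the authors' deposited tables PSME4 was at -0.06, 0.08 and -0.10, none called. The fit to counts gave rises of 0.40, 0.55 and 0.39 on the log2 scale (SE 0.08 each, adjusted p = 0.0044, 0.0021 and 0.0054). With the correction for GC content and length these values turned to -0.19, -0.08 and -0.13 and were not called, and without YB-0158 replicate 2 its rise with YB-0158 was 0.34 (adjusted p = 0.053).

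PSMF1, an inhibitor of the core in the test tube, was the only member called between compounds as counted, without the GC and length correction. It had 196 CPM in both ICG-001 libraries, 167 and 159 CPM with CWP232228 and 201 CPM in both YB-0158 libraries, against 160 and 170 CPM in DMSO. It rose with ICG-001 (0.25, SE 0.07, adjusted p = 0.014) and YB-0158 (0.29, SE 0.07, adjusted p = 0.0087) and was at -0.02 with CWP232228 (adjusted p = 0.87). Without 1 of the compound's own libraries the changes were 0.26 and 0.25 with ICG-001 and 0.28 and 0.29 with YB-0158, none of them called. With the correction PSMF1 was higher with all 3 compounds (0.73, 0.50 and 0.72). YB-0158 over CWP232228 gave 0.30 (95% interval 0.15 to 0.45, adjusted p = 0.03), in a comparison where 7.78% of all genes were called. CWP232228 over ICG-001 gave -0.27 for PSMF1 (95% interval -0.42 to -0.11, adjusted p = 0.05) and was not called. With the GC and length correction YB-0158 over CWP232228 gave 0.22 for PSMF1 (adjusted p = 0.066), not called. For that comparison 0 members were called with the replicate number as a block or without any 1 library of CWP232228, YB-0158 or ICG-001, and 7 without either DMSO library.

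Between CWP232228 and ICG-001, 0 of 48 members were called (6.82% of all genes), 5 without either DMSO library and 1 with DESeq2, and between YB-0158 and ICG-001 also 0 (0.00608% of all genes). The intervals still allow differences: PSME1 was at 0.29 (95% interval 0.07 to 0.52) for CWP232228 over ICG-001 and at 0.15 (-0.08 to 0.38) for YB-0158 over ICG-001. PSMC3 was at 0.29 (0.08 to 0.50) and 0.07 (-0.13 to 0.28) in the same comparisons. With the GC and length correction PSME1 (0.30) and PSMC3 (0.32) were called higher with CWP232228 than with ICG-001, and PSMA6 lower (-0.22). For YB-0158 over CWP232228, PSME1 (-0.21), PSMC3 (-0.285) and PSMG1 (-0.26) were then called lower and PSMB6 higher (0.18). Member differences ranged from -0.27 to 0.29 for CWP232228 over ICG-001, from -0.33 to 0.15 for YB-0158 over ICG-001 and from -0.32 to 0.30 for YB-0158 over CWP232228.

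Which transcripts of a member were used changed in few genes (edgeR's diffSpliceDGE, run on the estimated counts per transcript). Of 48 members, 1 was called with ICG-001 (2.08%, against 3.88% of 11611 genes), 4 with CWP232228 (8.33%, against 3.58%) and 2 with YB-0158 (4.17%, against 3.2%). PSMD7 was the member called with all 3 compounds (adjusted p = 0.00038, 0.00021 and 0.0014). Its main protein-coding transcript PSMD7-201 made up 91.9% and 90.6% of the gene with ICG-001, 90.8% and 90.2% with CWP232228 and 91.5% and 92.7% with YB-0158, against 98.2% and 97.6% in DMSO. All treated libraries lay below both DMSO libraries. PSMD11, a lid subunit, changed with YB-0158 (adjusted p = 0.044): PSMD11-212 made up 38.3% and 38% of it, against 44.2% and 44.8% in DMSO. With CWP232228, PSME3-217 and PSMC5-202 were estimated at 0% in both libraries, against 18.3% and 8.29%, and 7.44% and 16.1%, in DMSO (adjusted p = 7.4e-07 for PSME3 and 0.0084 for PSMC5). PSMF1-208 was likewise at 0%, against 6.91% and 1.3% in DMSO (adjusted p = 0.0034). The DMSO libraries themselves lay far apart in these 3 shares, and an estimated 0 can come from how reads are divided among overlapping transcripts. Leaving out either DMSO library gave 3 members with ICG-001, leaving out YB-0158 replicate 1 gave 2, and with YB-0158 leaving out any single library of CWP232228 or YB-0158 gave 1.

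The genes around the proteasome moved in both directions, and the shares of all genes that rose (24.8%, 21.6% and 21.7%) and fell (24%, 21.2% and 22.1%) with ICG-001, CWP232228 and YB-0158 are the background of the counts below. Of 12 genes of the NFE2L1 axis, which controls proteasome genes, 9 rose and 1 fell with ICG-001, 6 rose and 2 fell with CWP232228, and 9 rose with YB-0158. With the GC and length correction 8 rose and 2 fell, 4 rose and 1 fell, and 8 rose and 2 fell. The 12 genes were NFE2L1, NFE2L2, NFE2L3, DDI2, NGLY1, SYVN1, SEL1L, MAFF, MAFG, MAFK, BTRC and FBXW7. Their roles differ, so a count of rises does not measure NFE2L1 activity, which was not tested. DDI2, the protease that activates NFE2L1, is named after its values were seen: called higher as counted (0.69, 0.69 and 0.61), it was called lower with all 3 compounds under the correction (-0.14, -0.18 and -0.18). NFE2L1 itself averaged 479 CPM with ICG-001, 345 CPM with CWP232228 and 464 CPM with YB-0158, against 338 CPM in DMSO. The log2 fold changes were 0.50 (adjusted p = 0.00095), 0.03 (adjusted p = 0.78) and 0.46 (adjusted p = 0.0017), and with the correction 0.68, 0.24 and 0.60, called with all 3 compounds. NFE2L1 was lower with CWP232228 than with ICG-001 (-0.47, 95% interval -0.64 to -0.30, adjusted p = 0.0098) and higher with YB-0158 than with CWP232228 (0.43, 95% interval 0.26 to 0.60, adjusted p = 0.012). SEL1L, part of the membrane complex that exports NFE2L1 from the endoplasmic reticulum, rose by 1.44, 0.90 and 1.51, and NGLY1, which removes its sugars, rose by 0.67, 0.43 and 0.47; with the correction NGLY1 was not called with CWP232228 (0.13). NFE2L2, its relative in the oxidative stress response, rose by 0.59, 0.47 and 0.60. NFE2L3, another relative, rose with CWP232228 (0.24) and was at 0.03 and -0.09 with ICG-001 and YB-0158. With the correction NFE2L3 turned to -0.18, not called, with CWP232228 and was called lower with ICG-001 (-0.33) and YB-0158 (-0.37).

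Of 18 proteasome-associated genes, 8 rose with each compound and 2, 1 and 2 fell; with the correction 7, 3 and 9 rose and 3, 1 and 3 fell. USP14, a deubiquitinase of the cap, rose by 0.65, 0.55 and 0.40, ECPAS, which binds the cap, rose by 0.55, 0.42 and 0.47, and ZFAND5, a known proteasome activator, rose by 0.65, 0.52 and 0.66. With the correction ECPAS was at 0.11, -0.03 and 0.07 and not called, USP14 was called with ICG-001 alone of the 3 (0.31, against 0.15 and 0.14), and ZFAND5 stayed called with each. ZFAND2A, a stress-induced proteasome adaptor, rose by 1.08, 0.31 and 1.10. SEM1, the smallest subunit of the lid, was not a member by its symbol and fell by 0.32 with ICG-001 and by 0.26 with YB-0158, not called with the correction (-0.45 and -0.24). Upstream of the proteasome, VCP, the unfolding ATPase that hands over substrates, fell by 0.60, 0.37 and 0.58, and by 0.61, 0.34 and 0.61 with the correction. Of 9 genes of the VCP system, 5, 5 and 4 fell and 2 rose with each compound, and the VCP adaptors UBXN1, UFD1 and NPLOC4 fell with each. With the correction 3, 1 and 3 fell and 1, 0 and 1 rose: UFD1 was not called with any compound, NPLOC4 was not called with CWP232228, and UBXN1 was at 0.03 and -0.10, not called, with ICG-001 and CWP232228 and was called higher with YB-0158 (0.21). Of 6 ubiquitin genes, 4, 4 and 3 fell and 1, 1 and 0 rose, and with the correction 2 fell and 1 rose with each compound. UBA1, the main enzyme that activates ubiquitin, fell by 0.81, 0.52 and 0.71, RPS27A, which encodes ubiquitin fused to a ribosomal protein, fell by 0.68, 0.53 and 0.46, and UBB, a polyubiquitin gene, fell by 0.34 with ICG-001 and by 0.40 with CWP232228. With the correction UBA1 and RPS27A stayed called with each compound, and UBB was at -0.02 and -0.08 and not called.

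Genes of the interferon response and of peptide presentation, which share regulators with the immunoproteasome, rose or were not called, except 1 that fell with CWP232228. Of 12, 4 rose with ICG-001, 4 rose and 1 fell with CWP232228, and 5 rose with YB-0158. With the correction 6 rose and 1 fell, 4 rose, and 6 rose. TAP2, a peptide transporter subunit, rose by 0.85, 0.56 and 0.79, B2M, the light chain of class I molecules, by 0.50, 0.40 and 0.43, and ERAP2, a peptide-trimming enzyme, by 0.39, 0.65 and 0.53. With the correction TAP2 and B2M stayed called with each compound, and ERAP2 was at -0.10, 0.12 and 0.11 and not called. TAP1, the partner of TAP2, fell with CWP232228 (-0.37, adjusted p = 0.012) and was at -0.09 and -0.15 with ICG-001 and YB-0158; with the correction it was not called with CWP232228 (-0.21). The regulator IRF1 rose with YB-0158 (0.35, adjusted p = 0.0051) and was at 0.19 and -0.16 with ICG-001 and CWP232228, and with the correction it was called higher with ICG-001 too (0.43), while NLRC5 was not called with any compound.

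The genes whose log2 CPM was most like the mean of the alpha and beta rings over the 8 libraries were PRDX6 (Pearson r 0.99), PDZD11 (0.99), PRDX1 (0.99), BRK1 (0.98) and TMEM38A (0.98), a description that rests largely on the contrast of treated with DMSO libraries. Among members outside the rings, PSMC1 (0.98) and PSMD7 (0.97) were most like that mean, and PSME3 (-0.82), PSME4 (-0.81) and PSMD5 (-0.80) ran against it.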

How the data were processed

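Per the labels' protocols, libraries were made with the TruSeq RNA v2 kit, which does not mark strand, and sequenced on a NextSeq. Reads were trimmed with fastp and quantified against GRCh38 transcripts with Salmon 1.3.0, per the submitters' processing notes, which also name DESeq2. The authors deposited estimated counts and TPM per transcript, and tables per comparison with FPKM, a normalized mean signal, log2 fold changes and p-values. Estimated counts were summed per gene through GENCODE 29 (204677 of 228754 transcripts, 89.5%, matched; 1.54 to 1.85% of reads did not) and rounded to whole numbers. Totals were 29071547 to 58489118 reads per library, and a floor of 3 counts is 0.0513 to 0.103 CPM; such floors cover counting error only.

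Genes were filtered with edgeR's filterByExpr, normalised by TMM and tested with edgeR 4.0.16 (R 4.3.3, limma 3.58.1) by the quasi-likelihood test over all 8 libraries, without a replicate block, with 4 residual degrees of freedom and Benjamini-Hochberg adjustment over 16449 genes. Calls are at an adjusted p under 0.05. Transcript usage was tested with diffSpliceDGE. The GC and length correction used offsets from splines on GC content and on log2 length, fitted together per library with 5 degrees of freedom each. The scripts were tested on simulated data. Members, lists and tests were chosen with earlier results of these data known. Library values are given for the catalytic and immunoproteasome subunits, a set of receptors, activators and assembly factors, and members called with an absolute log2 fold change of at least 0.5; other members are examples with the smallest p. Opposite-strand overlaps make some members uncertain. PSMA8 and PSMB11 were not analysed here. Some genes of the surrounding lists are not reported here. DESeq2 1.42.0, other scalings and filters, a replicate block and left-out libraries were tried as alternatives. Replicate differences over 8568 genes correlated at -0.35, -0.37 and -0.28 between each compound and DMSO and at 0.42, 0.52 and 0.27 between CWP232228 and ICG-001, YB-0158 and ICG-001, and YB-0158 and CWP232228. With 2 libraries a group and no shared batch in the labels, the replicate numbers were not taken to pair libraries.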

Additional observations from a re-analysis of the deposited data

Results flagged for a closer look

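PSMF1, an inhibitor of the proteasome core, was higher with YB-0158 than with CWP232228 by 0.30 on the log2 scale, in a test of the difference between those compounds themselves. The doses differ between the compounds, and the call was lost with the replicate block, with the GC and length correction (0.22, adjusted p = 0.066 by edgeR) and when any 1 library of ICG-001, CWP232228 or YB-0158 was left out.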

How the results depend on the processing

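Leaving out 1 library at a time gave 15 to 27 lower and 2 to 6 higher members with ICG-001, 9 to 27 and 1 to 5 with CWP232228, and 10 to 30 and 1 to 5 with YB-0158. The medians ranged from -0.31 to -0.18, from -0.334 to -0.134 and from -0.284 to -0.147. Members called between compounds ranged from 0 to 5 for CWP232228 over ICG-001, 0 to 0 for YB-0158 over ICG-001 and 0 to 7 for YB-0158 over CWP232228, and those with changed transcript usage from 1 to 3, 3 to 5 and 1 to 3. A left-out library leaves 1 sample in its group, assumed to vary like the others.

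With the GC and length correction, 12 members fell with ICG-001, 10 fell and 2 rose with CWP232228, and 15 fell and 7 rose with YB-0158, with medians of -0.059, -0.047 and -0.086, and 3 and 4 were called for CWP232228 over ICG-001 and YB-0158 over CWP232228. With the replicate block and that correction together, 12 fell with ICG-001, 9 fell and 2 rose with CWP232228, and 13 fell and 7 rose with YB-0158, and 3 and 3 were called between those compounds. The replicate block alone gave 24, 22 and 22 falls and 6, 5 and 3 rises, and 0 members for YB-0158 over CWP232228, whose same-numbered libraries deviated together (0.27). Swapping the DMSO numbers, chosen after seeing the data, gave 25, 23 and 25 falls and 7, 7 and 6 rises. DESeq2 called 1 member for CWP232228 over ICG-001. Without the low-count filter 1, 1 and 2 members were called for CWP232228 over ICG-001, YB-0158 over ICG-001 and YB-0158 over CWP232228. With only the libraries compared, 3 rose with ICG-001, 1 rose with CWP232228, 11 fell with YB-0158, and 4 and 7 were called for CWP232228 over ICG-001 and YB-0158 over CWP232228. With protein-coding transcripts only, 0 were called for YB-0158 over CWP232228, and 2 and 1 had changed usage with CWP232228 and YB-0158. Usage of transcripts with at least 1 count gave 1 with YB-0158. The PSMB8 share with CWP232228 was 12.2% by FPKM.

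Among the 19 members given by library, signs turned under the correction for PSME2 (0.095, 0.104 and 0.117), PSME4 (-0.185, -0.081 and -0.133) and PSMB6 (0.178, 0.021 and 0.2) with ICG-001, CWP232228 and YB-0158, for PSMG4 (0.008 and 0.092) with the first 2, for PSMB10 with ICG-001 (0.003), and for PSMF1 (0.501) and POMP (-0.138) with CWP232228. With the block added these were 0.095, 0.104 and 0.117 for PSME2, -0.184, -0.079 and -0.131 for PSME4, 0.178, 0.021 and 0.2 for PSMB6, 0.009 and 0.094 for PSMG4, 0.003 for PSMB10, 0.501 for PSMF1 and -0.136 for POMP. PSMF1 with CWP232228 was 0.002 without the filter, 0.062 with protein-coding transcripts, 0.013 without DMSO replicate 2 and 0.025 without CWP232228 replicate 2, and -0.051 without DMSO replicate 1. POMP with YB-0158 was 0.031 without YB-0158 replicate 1 and -0.243 without its replicate 2. The cause was not tested. Of 969 alternative values for 19 named members, 847 kept direction and stayed either called or not called. Another 81 lost the call, 8 gained it and 33 turned sign. Changes that were not called to begin with, such as those of PSMB9, are among the 847. PSME1, PSMC3, PSMD4 and PSMB8 kept direction and call with all 3 compounds in all 17 alternatives. With 2 libraries a group, small differences are not detectable.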
